A study of Homo sapiens with 12 samples.

Results

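Newly made RNA of 49 genes was followed in U2OS-MycER cells. The genes encode the enzymes that add or remove methyl groups on histone lysines, the COMPASS subunits that work with the enzymes for lysine 4 of histone H3 (H3K4), and subunits of the Polycomb complexes. They were listed by symbol and matched by Entrez gene identifier, and all 49 were among the 23434 genes of the count table. U2OS is a human osteosarcoma cell line, and MycER is a fusion of the MYC transcription factor with a hormone-binding domain that is switched on by OHT (4-hydroxytamoxifen). In EU-seq, cells take up 5-ethynyl-uridine (EU) for a short time and only the RNA that carries it is pulled down and sequenced, so a value reflects RNA made during the pulse. The 12 libraries were 3 of shNT (a non-targeting shRNA), 3 of shNT_OHT, 3 of shCDK12 (an shRNA against the kinase CDK12) and 3 of shCDK12_OHT. Groups with OHT in their name received it at 300 nM for 40 h. Every group carried MycER, was given doxycycline at 1 µg/mL to switch on the shRNA, was arrested with 100 ng/mL nocodazole for 8 h, was collected by mitotic shake-off, and was grown for 12 h after release with 0.5 mM EU in the last 2 h. No OHT-treated cells without MycER were analysed here, so MycER activity and OHT itself cannot be told apart. The labels number the replicates but do not say whether they were separate cultures, and p-values therefore measure the spread between these libraries.

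Histone lysine methylation is written by SET-domain enzymes and DOT1L and erased by the KDM enzymes. The residue sets the reading: H3K4 methylation marks promoters and enhancers, H3K36 and H3K79 methylation marks transcribed gene bodies, H3K9 methylation marks heterochromatin, and H4K20 methylation is tied to chromatin compaction and the cell cycle. Polycomb repressive complex 2 (PRC2) places H3K27 methylation through EZH1 or EZH2, and PRC1 adds ubiquitin to histone H2A, and together they hold developmental genes silent.

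Library totals were 1928373 to 5227279 counts in shNT, 1251695 to 3666406 in shNT_OHT, 4142570 to 9400045 in the libraries labelled shCDK12 and 5378438 to 10447836 in those labelled shCDK12_OHT, so the shNT_OHT group was the least precise. CDK12, the target of the shRNA, measured 323, 289 and 300.2 CPM in shNT and 434, 356 and 400.5 in shNT_OHT. CDK12 was at 293, 277 and 298 CPM in the libraries labelled shCDK12 and 215, 208 and 218 in those labelled shCDK12_OHT. Without OHT the groups overlapped (log2 fold change -0.076, SE 0.084, adjusted p = 0.447), and the sign turned positive with upper-quartile normalization (0.015) and with gene length trends removed (0.014). CDK12 was lower in the libraries labelled shCDK12_OHT than in shNT_OHT (log2 fold change -0.88, SE 0.11, adjusted p = 0.00011) and than in the libraries labelled shCDK12 (log2 fold change -0.44, SE 0.074, adjusted p = 9.55e-05). New CDK12 RNA was thus not called different between the shRNA labels in the absence of OHT. These values are of RNA made in the pulse, and neither mature CDK12 RNA nor protein was measured here. The knockdown could therefore not be checked, with OHT or without it, and "labelled" is kept throughout. CDK12 rose with OHT in shNT (log2 fold change 0.38, SE 0.12, adjusted p = 0.0352), a call lost in 5 of 14 alternatives. With the labels shCDK12 and shCDK12_OHT exchanged, CDK12 would be below its control both without and with OHT. It would also rise with OHT in both backgrounds. Whether these labels were exchanged was not tested, and every direction that involves them rests on the labels as given. MYC, whose reads may include the MycER transgene, measured 2221, 2044 and 2013 CPM in shNT and 2199, 1706 and 1997 in shNT_OHT. MYC was at 1214, 1035 and 1122 CPM in the libraries labelled shCDK12 and 2091, 2095 and 2000.4 in those labelled shCDK12_OHT. The U2OS label was set against mesenchymal markers: 5 of 7 were expressed, TWIST1 and COL1A2 were at or near 0, and their summed level was 1497 to 1576 CPM in shNT, 998 to 1099 in shNT_OHT, 400.4 to 412 in the libraries labelled shCDK12 and 563 to 580 in those labelled shCDK12_OHT. Of the 5 epithelial markers, KRT8 and KRT18 were high in all libraries, CDH1 ran from 3.99 to 12.2 CPM, EPCAM stayed at or under 9.55 CPM and KRT19 was at 0. Their summed level was 693 to 765 CPM in shNT, 679 to 830 in shNT_OHT, 652 to 752 in the libraries labelled shCDK12 and 886 to 970 in those labelled shCDK12_OHT, above every other library. The blood markers summed to at most 3.94 CPM. What part these shifts had in the results was not tested.

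Levels are each gene's share of the TMM-scaled library total, in the usual CPM unit, and changes are log2 fold changes from edgeR's quasi-likelihood test. A gene was called when its Benjamini-Hochberg adjusted p over all genes tested was under 0.05, and it was tested when its mean normalized count over the libraries of the fit was above 32. Counts are relative to each library's total, so a change in the total amount of new RNA cannot be seen. Per kilobase of exon, KDM2A had the highest level of the 49 in shNT (41.7 CPM per kb), followed by SUV39H1 (36.7), KDM4A (33.2), RBBP5 (28.7) and TRIM28 (27.4). The length used was that of all GENCODE exons of a gene merged, not of the hg19 annotation behind the counts, so the order also depends on annotation. At the other end were SETDB2 (1.45 CPM per kb), EZH2 (1.38) and BMI1 (0.118). BMI1, a PRC1 subunit, had 0 to 14 counts per library and was tested in no comparison. The read-through gene COMMD3-BMI1, which shares 22.8% of the BMI1 exon bases on the same strand, had 0 counts in every library. That overlap is from GENCODE, not from the hg19 annotation behind the counts. Whether reads in shared exons were counted for either gene is not known here, so low BMI1 counts need not mean low transcription.

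Few of these genes passed the test with OHT in shNT cells. Of the 46 tested, 3 were higher and 3 lower, against 17.3% of all 10272 genes tested (9.05% higher and 8.29% lower), and the members' median log2 fold change was -0.0086 where that of all genes was -0.029. Between the libraries labelled shCDK12 and shNT, 13 of 48 were higher and 15 lower, with 62.0% of all genes called (29.6% higher, 32.4% lower). OHT in the libraries labelled shCDK12 gave 9 higher and 10 lower of 48, with 48.9% of all genes called (27.5% higher, 21.5% lower). Between the shRNA labels with OHT, 13 were higher and 10 lower of 48, with 45.4% of all genes called (23.8% higher, 21.6% lower). The interaction, which asks whether the OHT response differed between the shRNA backgrounds, called 11 upward and 8 downward of 48, with 45.2% of all genes called (25.6% upward, 19.6% downward). In each comparison the members were called at a share near or below that of all genes. SUV39H1 was called in all 5 comparisons, and 11 members in none: ASH1L, BMI1, EHMT2, KDM1A, KDM7A, KMT2B, KMT2C, KMT2D, RBBP5, SETD5 and SUZ12. Alternative settings called 9 of these 11 at least once, all but BMI1 and KMT2B. The comparisons share libraries, and the interaction uses those of all the others, so a gene's calls in several of them are not separate findings. The number of comparisons in which a gene was called was not counted over all genes, so such counts for members have no background here.

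The direction of the calls moved with the scaling. With upper-quartile normalization the splits of higher and lower members were 5 and 2 for OHT in shNT, 19 and 13 for the shRNA labels without OHT, 7 and 13 for OHT in the libraries labelled shCDK12, and 8 and 10 for the interaction, whose all-gene median moved from 0.10 to -0.017. DESeq2 gave 5 and 3, 7 and 12, and 8 and 9 for the first, the third and the last of these. Removing each library's trend in gene length gave 2 and 0 for OHT in shNT, 17 and 13 for the shRNA labels without OHT, 7 and 14 for OHT in the libraries labelled shCDK12, 10 and 14 for the shRNA labels with OHT, and 5 and 14 for the interaction. With any 1 library left out, none of the 6 member calls for OHT in shNT held throughout, and the number of members called ran from 1 to 11. Of the calls between the shRNA labels without OHT 20 of 28 held, of those for OHT in the libraries labelled shCDK12 14 of 19, of those between the shRNA labels with OHT 10 of 23, and of the interaction calls 14 of 19. Under every alternative in which the gene was tested, 0, 19, 12, 9 and 11 calls held in these 5 comparisons.

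**Figure D1:**
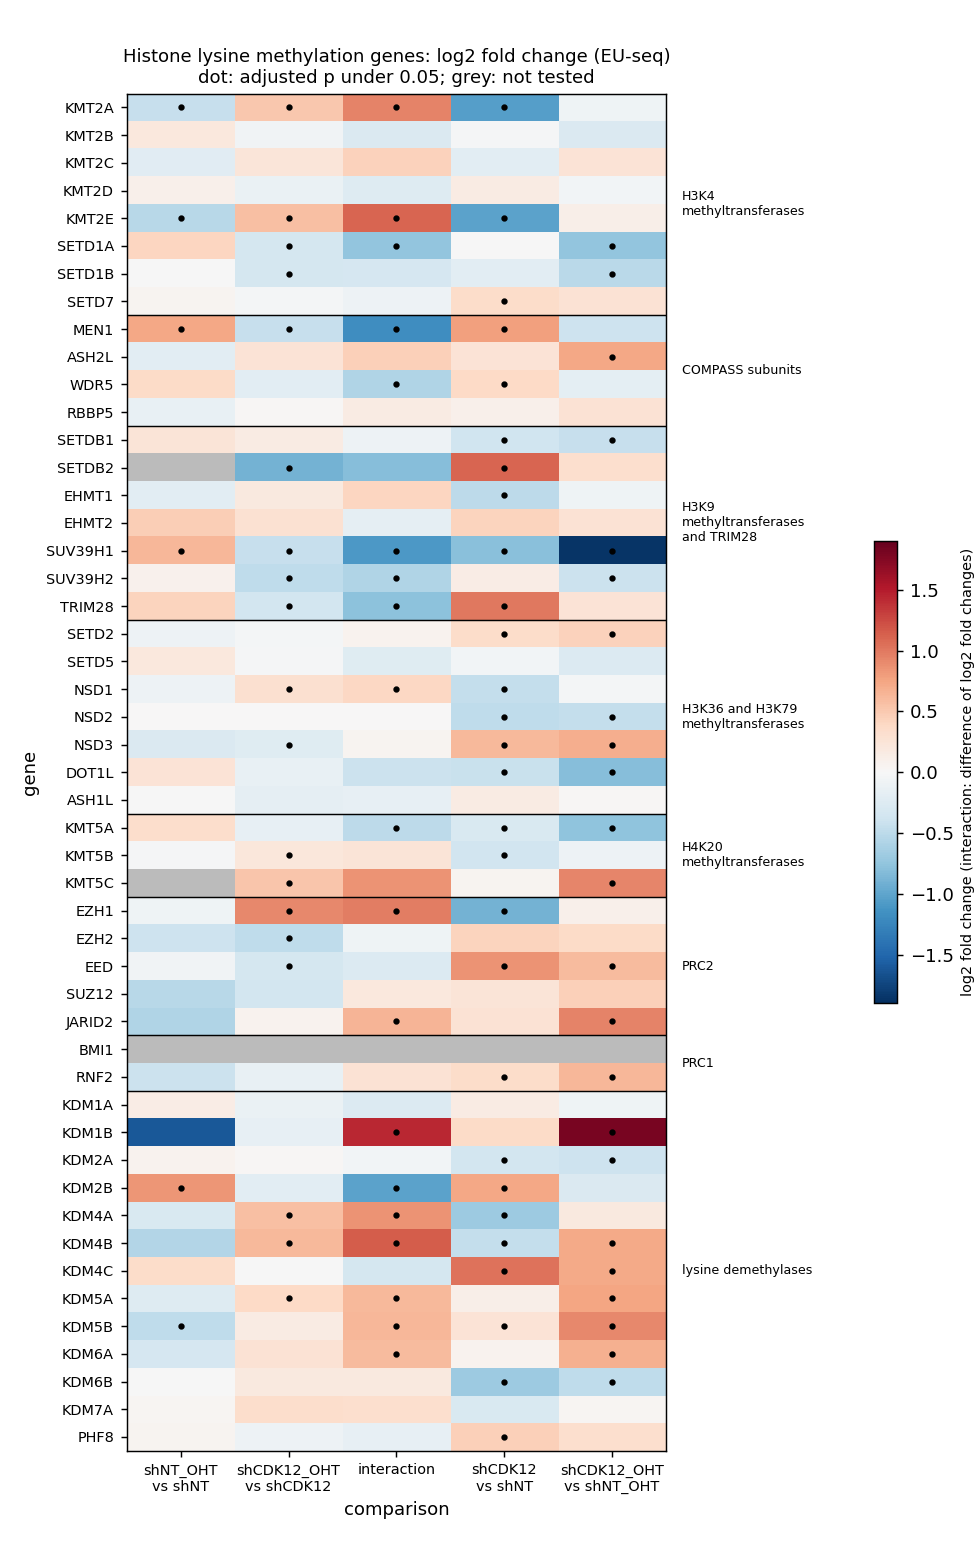
Log2 fold change of each of the 49 genes (rows, grouped by role) in the 5 comparisons (columns), with blue for lower, red for higher, grey for not tested, and a dot where the adjusted p was under 0.05. The column of shNT_OHT against shNT holds 6 dots and that of shCDK12 against shNT 28, and the darkest blue square is SUV39H1 between the shRNA labels with OHT.

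Among the 8 genes grouped here as H3K4 methyltransferases, KMT2A and KMT2E had calls of the same sign in 4 comparisons, while KMT2B, KMT2C and KMT2D had no call. KMT2A, the MLL1 enzyme that keeps developmental genes such as the HOX clusters active, measured 201, 196 and 206 CPM in shNT and 148, 138 and 159 in shNT_OHT. KMT2A was at 104, 88.9 and 101 CPM in the libraries labelled shCDK12 and 146, 128 and 144 in those labelled shCDK12_OHT. All 3 shNT libraries lay above the other 9, and the libraries labelled shCDK12 lay below the rest. KMT2A fell with OHT in shNT (log2 fold change -0.44, SE 0.12, adjusted p = 0.0257) and rose with OHT in the libraries labelled shCDK12 (log2 fold change 0.51, SE 0.092, adjusted p = 0.000172). Without OHT it was 0.485 times the shNT level in the libraries labelled shCDK12 (log2 fold change -1.04, SE 0.10, adjusted p = 1.13e-09), and the OHT response differed between backgrounds (interaction 0.94 on the log2 scale, SE 0.15, adjusted p = 3.93e-05). KMT2E, a SET-domain family member best known as a reader of H3K4 methylation, measured 261, 211 and 206 CPM in shNT and 152, 155 and 166 in shNT_OHT. KMT2E was at 118, 114 and 106 CPM in the libraries labelled shCDK12 and 193, 149 and 163 in those labelled shCDK12_OHT. Its shNT libraries were again the highest and those labelled shCDK12 the lowest, with no overlap. KMT2E fell with OHT in shNT (log2 fold change -0.52, SE 0.13, adjusted p = 0.0139), was lower without OHT in the libraries labelled shCDK12 (log2 fold change -1.01, SE 0.10, adjusted p = 3.58e-09) and rose there with OHT (log2 fold change 0.58, SE 0.10, adjusted p = 8.84e-05). Its interaction was 1.10 on the log2 scale (SE 0.17, adjusted p = 2.39e-05). Part of KMT2E's exons, 2.69%, lies opposite SRPK2, and since the use of strand in counting is not given in the sources used here, reads of the pair cannot be told apart there. In shNT the KMT2A call was lost without shNT replicate 1, 2 or 3 or shNT_OHT replicate 3, after thinning and with gene length trends removed (adjusted p 0.0618 to 0.18), and the KMT2E call without shNT replicate 1 and with gene length trends removed (adjusted p 0.095 to 0.113). Their other calls held under every alternative.

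KMT2B, the closest relative of KMT2A, measured 91.6, 88.8 and 110.3 CPM in shNT and 145, 92.4 and 92.2 in shNT_OHT. KMT2B was at 100.1, 90.1 and 94.6 CPM in the libraries labelled shCDK12 and 99.3, 90.1 and 81.3 in those labelled shCDK12_OHT, and its groups overlapped throughout. The enhancer enzymes KMT2C and KMT2D were likewise called in no comparison, with KMT2C between 63.0 and 99.4 CPM and KMT2D between 231 and 366 CPM over the 12 libraries. SETD1A, which supplies most bulk H3K4 trimethylation together with SETD1B, measured 118, 99.0 and 107 CPM in shNT and 158, 132 and 138 in shNT_OHT. SETD1A was at 119, 103 and 100.3 CPM in the libraries labelled shCDK12 and 88.2, 84.7 and 80.2 in those labelled shCDK12_OHT. Its shNT_OHT libraries were the highest and those labelled shCDK12_OHT the lowest, with no overlap between these 2 groups. The rise of SETD1A with OHT in shNT was not called (log2 fold change 0.41, SE 0.14, adjusted p = 0.062), although 5 of 14 alternatives called it. SETD1A fell with OHT in the libraries labelled shCDK12 (log2 fold change -0.34, SE 0.093, adjusted p = 0.00548) and was lower there than in shNT_OHT (log2 fold change -0.74, SE 0.12, adjusted p = 0.000777), with a downward interaction (-0.75 on the log2 scale, SE 0.16, adjusted p = 0.000908). SETD1B measured 122, 111 and 113 CPM in shNT and 138, 119.6 and 90.2 in shNT_OHT. SETD1B was at 90.8, 101 and 108 CPM in the libraries labelled shCDK12 and 82.5, 80.0 and 76.7 in those labelled shCDK12_OHT. It too fell with OHT in the libraries labelled shCDK12 (log2 fold change -0.33, SE 0.093, adjusted p = 0.00678). For SETD1B the call with OHT under the shCDK12 label was lost in the fit of all 12 libraries and after thinning (adjusted p 0.054 to 0.153). Its difference between the shRNA labels with OHT (log2 fold change -0.52, SE 0.16, adjusted p = 0.0216) was lost without shCDK12_OHT replicate 1, 2 or 3 (adjusted p 0.0599 to 0.0846). SETD7, which places a single methyl group on H3K4, was 128 to 138 CPM in shNT and 147 to 183 in the libraries labelled shCDK12 (log2 fold change 0.35, SE 0.10, adjusted p = 0.00372), with no overlap.

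Of the COMPASS subunits, menin was called in 4 comparisons, WDR5 in 2 and ASH2L in 1. MEN1 encodes menin, which tethers KMT2A and KMT2B to chromatin, and measured 37.7, 41.2 and 39.6 CPM in shNT and 81.1, 65.2 and 51.6 in shNT_OHT. MEN1 was at 75.3, 61.4 and 67.0 CPM in the libraries labelled shCDK12 and 52.7, 49.7 and 46.4 in those labelled shCDK12_OHT. Its shNT libraries were the lowest of all 12, and menin RNA was 1.67 times as high with OHT in shNT (log2 fold change 0.74, SE 0.20, adjusted p = 0.0199). It was also higher in the libraries labelled shCDK12 than in shNT (log2 fold change 0.77, SE 0.14, adjusted p = 2.47e-05) and fell there with OHT (log2 fold change -0.44, SE 0.11, adjusted p = 0.00218), so the OHT responses had opposite signs (interaction -1.18 on the log2 scale, SE 0.22, adjusted p = 0.000172). The rise with OHT in shNT was lost without shNT replicate 1, 2 or 3 and with gene length trends removed (adjusted p 0.0511 to 0.092). WDR5, the scaffold shared by all COMPASS complexes, measured 63.9, 78.5 and 65.7 CPM in shNT and 99.6, 92.4 and 78.3 in shNT_OHT. WDR5 was at 89.4, 95.5 and 85.7 CPM in the libraries labelled shCDK12 and 75.5, 80.1 and 79.6 in those labelled shCDK12_OHT. Its change with OHT in shNT did not pass the test (log2 fold change 0.37, SE 0.16, adjusted p = 0.129) except in the fit of all 12 libraries (adjusted p = 0.0434). WDR5 was higher without OHT in the libraries labelled shCDK12 (log2 fold change 0.37, SE 0.12, adjusted p = 0.00764). For WDR5 the call without OHT was lost without shNT replicate 1 (adjusted p = 0.0616). Its interaction was downward (interaction -0.57 on the log2 scale, SE 0.18, adjusted p = 0.0133). ASH2L, which stimulates the catalytic subunit, was 26.6 to 38.6 CPM in shNT_OHT and 47.8 to 58.8 in the libraries labelled shCDK12_OHT (log2 fold change 0.73, SE 0.18, adjusted p = 0.00647), with no overlap. Of its exon bases, 5.97% lie opposite STAR. RBBP5, the other core subunit, was called in no comparison and ran from 111 to 149 CPM.

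**Figure D2:**
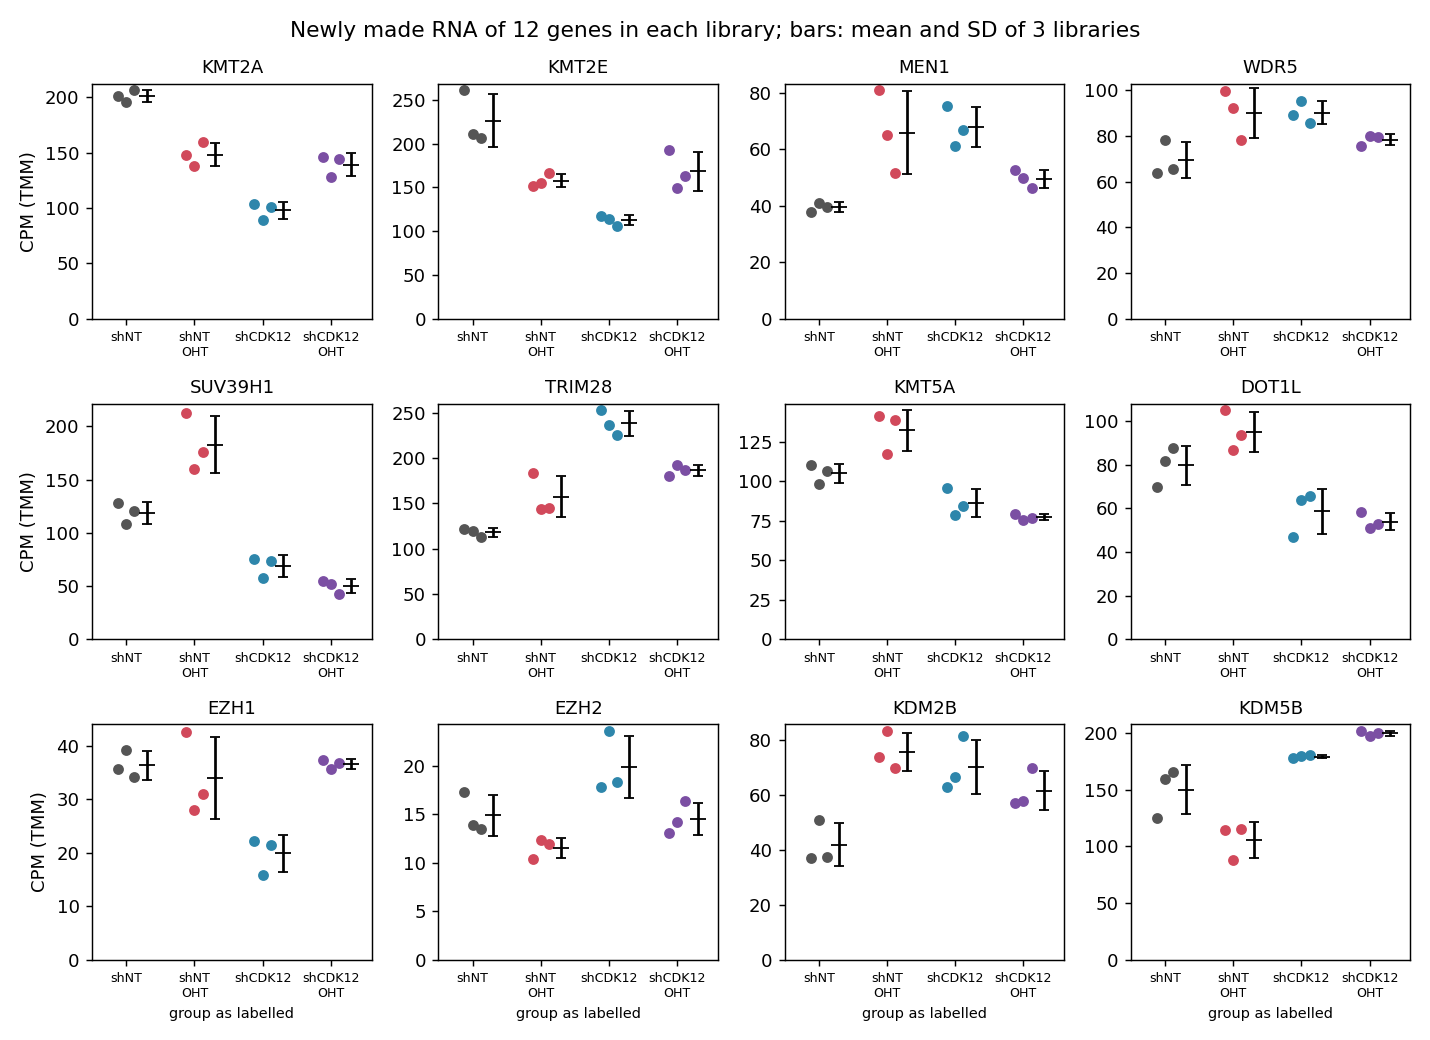
CPM (vertical axis, from 0) of 12 genes in each library, with points for the 3 libraries of a group as labelled and bars for their mean and SD. SUV39H1 is highest in shNT_OHT and lowest in the libraries labelled shCDK12_OHT, while KMT2A is highest in shNT and lowest in the libraries labelled shCDK12.

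SUV39H1, which trimethylates H3K9 in heterochromatin next to centromeres, was lower in the libraries with an shCDK12 label, without OHT and with it. It measured 128, 108 and 121 CPM in shNT and 212, 160.0 and 175 in shNT_OHT. SUV39H1 was at 75.7, 57.3 and 73.1 CPM in the libraries labelled shCDK12 and 54.9, 51.8 and 42.6 in those labelled shCDK12_OHT. Its 4 groups followed one another without overlap, from the libraries labelled shCDK12_OHT at the bottom through those labelled shCDK12 and shNT to shNT_OHT at the top. SUV39H1 rose with OHT in shNT (log2 fold change 0.63, SE 0.14, adjusted p = 0.00917) and fell with OHT in the libraries labelled shCDK12 (log2 fold change -0.44, SE 0.12, adjusted p = 0.00591). It was lower in the libraries labelled shCDK12 than in shNT (log2 fold change -0.80, SE 0.12, adjusted p = 3.45e-06), and with OHT it stood at 0.275 times the shNT_OHT level (log2 fold change -1.86, SE 0.15, adjusted p = 1.11e-05), the largest fall among the members in any comparison. The interaction was downward (interaction -1.08 on the log2 scale, SE 0.20, adjusted p = 0.000178). The rise in shNT was lost without shNT replicate 2 (adjusted p = 0.0826), and the other calls held under every alternative. Its paralog SUV39H2 measured 85.7, 91.9 and 78.7 CPM in shNT and 79.9, 97.3 and 97.7 in shNT_OHT. SUV39H2 was at 89.2, 102 and 94.4 CPM in the libraries labelled shCDK12 and 78.5, 63.3 and 61.9 in those labelled shCDK12_OHT. SUV39H2 was lowest in the libraries labelled shCDK12_OHT, which did not overlap those labelled shCDK12, where OHT lowered it (log2 fold change -0.49, SE 0.10, adjusted p = 0.000852). It was also lower between the shRNA labels with OHT (log2 fold change -0.41, SE 0.15, adjusted p = 0.0429). For SUV39H2 the call between shRNA labels under OHT was lost without shNT_OHT replicate 2 or 3 or shCDK12_OHT replicate 2 or 3 and with the replicate block (adjusted p 0.0522 to 0.172). Its interaction was -0.57 (SE 0.18, adjusted p = 0.0157). SUV39H2 has 4.46% of its exon bases opposite DCLRE1C.

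TRIM28, the KAP1 corepressor that brings SETDB1 to zinc-finger-bound repeats, measured 122, 119 and 112 CPM in shNT and 183, 144 and 145 in shNT_OHT. TRIM28 was at 252, 236 and 226 CPM in the libraries labelled shCDK12 and 180.4, 192 and 186 in those labelled shCDK12_OHT. The libraries labelled shCDK12 were the highest and shNT the lowest, with no overlap between any of the 4 groups except shNT_OHT and shCDK12_OHT. TRIM28 stood at 2.01 times the shNT level in the libraries labelled shCDK12 (log2 fold change 1.01, SE 0.091, adjusted p = 7.22e-10) and fell there with OHT (log2 fold change -0.35, SE 0.077, adjusted p = 0.00101). With OHT in shNT it did not pass the test (log2 fold change 0.42, SE 0.14, adjusted p = 0.0526), although 5 alternatives gave an adjusted p of 0.00781 to 0.0441, and the interaction was downward (interaction -0.77 on the log2 scale, SE 0.15, adjusted p = 0.000322). SETDB1, the H3K9 enzyme of the TRIM28 pathway, was 89.6 to 108 CPM in shNT and 71.0 to 82.2 in the libraries labelled shCDK12 (log2 fold change -0.37, SE 0.12, adjusted p = 0.0073). For SETDB1 the call without OHT was lost without shNT replicate 1 (adjusted p = 0.0841). With OHT it was 95.7 to 136 CPM in shNT_OHT and 77.4 to 95.1 in the libraries labelled shCDK12_OHT (log2 fold change -0.44, SE 0.16, adjusted p = 0.0399). For SETDB1 the call between shRNA labels under OHT was lost without shNT_OHT replicate 3 or shCDK12_OHT replicate 1 or 2 and with the replicate block (adjusted p 0.0525 to 0.158). Of its exon bases, 12.9% lie opposite CERS2. SETDB2, a low-level relative, measured 12.2, 9.76 and 7.02 CPM in shNT and 8.15, 9.90 and 10.4 in shNT_OHT. SETDB2 was at 19.2, 23.4 and 21.8 CPM in the libraries labelled shCDK12 and 12.8, 10.8 and 11.4 in those labelled shCDK12_OHT. It was highest in the libraries labelled shCDK12 and without overlap with any other group there. It was higher than in shNT (log2 fold change 1.11, SE 0.23, adjusted p = 0.000148) and fell with OHT (log2 fold change -0.90, SE 0.16, adjusted p = 0.000134). The euchromatic H3K9 dimethylation pair EHMT1 and EHMT2 (GLP and G9a) showed less: EHMT1 was 45.1 to 64.9 CPM in shNT and 35.9 to 41.0 in the libraries labelled shCDK12 (log2 fold change -0.50, SE 0.15, adjusted p = 0.00495). For EHMT1 the call without OHT was lost without shNT replicate 1 and after thinning (adjusted p 0.0781 to 0.518). EHMT2 ran from 15.5 to 49.8 CPM with no call. Between the shRNA labels without OHT, EHMT2 had log2 fold change 0.42, SE 0.20, adjusted p = 0.0682, and 7 of 14 alternatives called it, among them upper-quartile normalization, no filter on low counts and removal of gene length trends. Over the 7 genes of the H3K9 group, OHT lowered 4 of 7 in the libraries labelled shCDK12 (median log2 fold change -0.35 against 0.048 for all genes), where 21.5% of all genes were called lower, and raised 1 of 6 tested in shNT (median 0.33 against -0.029), where 9.05% of all genes were called higher. Such medians were not particular to this group. The 5 PRC2 genes had a median of -0.34 with OHT under the shCDK12 label (1 higher, 2 lower) and of -0.39 in shNT (0 higher, 0 lower).

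Of the 7 genes grouped here as H3K36 and H3K79 enzymes, 2 were higher and 3 lower between the shRNA labels without OHT, where 62.0% of all genes were called. With OHT 2 were higher and 2 lower, where 45.4% of all genes were called. SETD2, which trimethylates H3K36 behind elongating RNA polymerase II, measured 242, 243 and 223 CPM in shNT and 193, 228 and 244 in shNT_OHT. SETD2 was at 311, 289 and 302 CPM in the libraries labelled shCDK12 and 295, 272 and 316 in those labelled shCDK12_OHT. The libraries with an shCDK12 label were higher than those with shNT both without OHT (log2 fold change 0.34, SE 0.083, adjusted p = 0.000928) and with it (log2 fold change 0.43, SE 0.12, adjusted p = 0.0127), and neither pair overlapped. The second call was lost without shCDK12_OHT replicate 1 or 3, after thinning and with gene length trends removed (adjusted p 0.055 to 0.216). The NSD enzymes, which dimethylate H3K36, went apart. NSD1 measured 393, 382 and 342 CPM in shNT and 332, 356 and 365 in shNT_OHT. NSD1 was at 305, 237 and 283 CPM in the libraries labelled shCDK12 and 347, 334 and 335 in those labelled shCDK12_OHT. It was lower without OHT in the libraries labelled shCDK12 (log2 fold change -0.45, SE 0.092, adjusted p = 0.000173). OHT raised NSD1 in the libraries labelled shCDK12 (log2 fold change 0.31, SE 0.087, adjusted p = 0.00688). For NSD1 the call with OHT under the shCDK12 label was lost after thinning and with gene length trends removed (adjusted p 0.0565 to 0.147). Its interaction (0.39 on the log2 scale, SE 0.14, adjusted p = 0.0293) was lost without shNT replicate 1 or 2, shCDK12 replicate 2 or shCDK12_OHT replicate 1 or 3, with DESeq2, with upper-quartile normalization, after thinning and with gene length trends removed (adjusted p 0.0509 to 0.801). NSD2 was 145 to 170.1 CPM in shNT and 105 to 116 in the libraries labelled shCDK12 (log2 fold change -0.48, SE 0.10, adjusted p = 0.000173), with the same direction under OHT (log2 fold change -0.45, SE 0.13, adjusted p = 0.0154), where the call was lost without shCDK12_OHT replicate 1, 2 or 3 (adjusted p 0.0553 to 0.0714). NSD3 moved the other way: 74.7 to 96.7 CPM in shNT, 56.7 to 83.3 in shNT_OHT, 128 to 147 in the libraries labelled shCDK12 and 113 to 117 in those labelled shCDK12_OHT. It was higher between the shRNA labels without OHT (log2 fold change 0.62, SE 0.11, adjusted p = 2.28e-05) and with it (log2 fold change 0.69, SE 0.15, adjusted p = 0.00427), with no overlap in either. Its fall with OHT in the libraries labelled shCDK12 (log2 fold change -0.23, SE 0.085, adjusted p = 0.0345) was lost without shCDK12 replicate 1 or 3 or shCDK12_OHT replicate 1, 2 or 3, with no filter on low counts, in the fit of all 12 libraries and after thinning (adjusted p 0.0513 to 0.215).

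DOT1L, the H3K79 methyltransferase, measured 69.8, 81.6 and 87.7 CPM in shNT and 105, 86.6 and 93.7 in shNT_OHT. DOT1L was at 46.8, 63.9 and 65.5 CPM in the libraries labelled shCDK12 and 58.1, 51.0 and 52.6 in those labelled shCDK12_OHT. Every library with an shCDK12 label was lower than every shNT library, whether OHT was absent (log2 fold change -0.42, SE 0.14, adjusted p = 0.0101) or present (log2 fold change -0.81, SE 0.13, adjusted p = 0.0007). The call without OHT was lost without shCDK12 replicate 1 (adjusted p = 0.0521). Of its exon bases, 4.60% lie opposite PLEKHJ1. ASH1L and SETD5, the remaining pair of the group, were called in no comparison, with ASH1L between 228 and 293 CPM.

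The H4K20 enzymes act in sequence, with KMT5A placing the first methyl group and KMT5B and KMT5C adding the next. KMT5A, which is needed for ordered S phase and chromosome condensation, measured 110.3, 98.2 and 106 CPM in shNT and 141, 117 and 138 in shNT_OHT. KMT5A was at 95.9, 78.4 and 84.4 CPM in the libraries labelled shCDK12 and 79.5, 75.4 and 76.9 in those labelled shCDK12_OHT. All shNT_OHT libraries were above the other 9. The rise of KMT5A with OHT in shNT was not called (log2 fold change 0.34, SE 0.14, adjusted p = 0.11), although 2 of 14 alternatives called it. Between the shRNA labels with OHT there was no overlap (log2 fold change -0.76, SE 0.13, adjusted p = 0.000674). The difference without OHT was small (log2 fold change -0.29, SE 0.11, adjusted p = 0.0273) and was lost without shNT replicate 1 or 3 or shCDK12 replicate 2 or 3, with DESeq2, with upper-quartile normalization, after thinning and with gene length trends removed (adjusted p 0.0506 to 0.129). Its downward interaction (-0.50 on the log2 scale, SE 0.16, adjusted p = 0.0179) was lost without shNT replicate 2 or shCDK12 replicate 1 (adjusted p 0.0523 to 0.0547). KMT5B measured 209, 197 and 178 CPM in shNT and 161, 235 and 186 in shNT_OHT. KMT5B was at 144, 161 and 151 CPM in the libraries labelled shCDK12 and 179, 178 and 177 in those labelled shCDK12_OHT. It was lower in the libraries labelled shCDK12 than in shNT (log2 fold change -0.36, SE 0.091, adjusted p = 0.00138), while its rise with OHT there (log2 fold change 0.22, SE 0.079, adjusted p = 0.0254) was lost without shCDK12 replicate 1 or 3 or shCDK12_OHT replicate 1, 2 or 3, with DESeq2, with upper-quartile normalization, in the fit of all 12 libraries and with gene length trends removed (adjusted p 0.0578 to 0.132). KMT5C, at 6.38 to 8.25 CPM in shNT_OHT and 11.4 to 16.5 in the libraries labelled shCDK12_OHT, was higher in the latter (log2 fold change 0.93, SE 0.28, adjusted p = 0.0187). For KMT5C the call between shRNA labels under OHT was lost without shNT_OHT replicate 3 or shCDK12_OHT replicate 2 and with the replicate block (adjusted p 0.053 to 0.122). It rose with OHT in the libraries labelled shCDK12 (log2 fold change 0.53, SE 0.20, adjusted p = 0.035). For KMT5C the call with OHT under the shCDK12 label was lost without shCDK12 replicate 2 or 3 or shCDK12_OHT replicate 2, with DESeq2, with upper-quartile normalization and in the fit of all 12 libraries (adjusted p 0.0583 to 0.301).

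Within PRC2 the catalytic pair went opposite ways with OHT in the libraries labelled shCDK12. EZH1, the form found mainly in resting cells, measured 35.6, 39.2 and 34.1 CPM in shNT and 42.6, 28.0 and 31.0 in shNT_OHT. EZH1 was at 22.2, 15.8 and 21.5 CPM in the libraries labelled shCDK12 and 37.4, 35.6 and 36.8 in those labelled shCDK12_OHT. The libraries labelled shCDK12 were lower than all others: EZH1 was lower there than in shNT (log2 fold change -0.90, SE 0.18, adjusted p = 9.45e-05), and OHT brought it to 1.88 times the level without OHT (log2 fold change 0.91, SE 0.15, adjusted p = 5.67e-05), which gave an upward interaction (0.98 on the log2 scale, SE 0.25, adjusted p = 0.00365). EZH2, the form of dividing cells and itself an E2F target, measured 17.3, 13.9 and 13.5 CPM in shNT and 10.3, 12.4 and 11.9 in shNT_OHT. EZH2 was at 17.8, 23.6 and 18.3 CPM in the libraries labelled shCDK12 and 13, 14.2 and 16.3 in those labelled shCDK12_OHT. It fell with OHT in the libraries labelled shCDK12 (log2 fold change -0.49, SE 0.16, adjusted p = 0.0188). For EZH2 the call with OHT under the shCDK12 label was lost without shCDK12 replicate 2 or shCDK12_OHT replicate 1 or 2 and in the fit of all 12 libraries (adjusted p 0.0587 to 0.119). With OHT in shNT, EZH2 was also lower, without overlap, but was not called (log2 fold change -0.39, SE 0.29, adjusted p = 0.375). The EZH2 interaction did not pass the test (interaction -0.077 on the log2 scale, SE 0.31, adjusted p = 0.858). EED, which binds trimethylated H3K27 and lets PRC2 spread, measured 30.7, 30.8 and 25.1 CPM in shNT and 30.4, 28.0 and 25.2 in shNT_OHT. EED was at 48.9, 59.6 and 49 CPM in the libraries labelled shCDK12 and 43.6, 44.7 and 36.5 in those labelled shCDK12_OHT. It was higher in the libraries with an shCDK12 label without OHT (log2 fold change 0.85, SE 0.15, adjusted p = 2.65e-05) and with it (log2 fold change 0.60, SE 0.17, adjusted p = 0.0151). For EED the call between shRNA labels under OHT was lost without shNT_OHT replicate 3 or shCDK12_OHT replicate 1 or 2 and after thinning (adjusted p 0.0616 to 0.321). OHT lowered EED in the libraries labelled shCDK12 (log2 fold change -0.34, SE 0.12, adjusted p = 0.0233). For EED the call with OHT under the shCDK12 label was lost without shCDK12 replicate 2 or shCDK12_OHT replicate 1 or 3, in the fit of all 12 libraries and after thinning (adjusted p 0.0506 to 0.293). JARID2, a subunit that helps PRC2 onto its targets, measured 45.0, 46.5 and 50.6 CPM in shNT and 37.9, 31.3 and 25.8 in shNT_OHT. JARID2 was at 54.7, 59.4 and 56.3 CPM in the libraries labelled shCDK12 and 57.7, 58.5 and 63.9 in those labelled shCDK12_OHT. Its shNT_OHT libraries were the lowest of the 12. The fall of JARID2 with OHT in shNT was not called (log2 fold change -0.58, SE 0.21, adjusted p = 0.068), although 2 of 14 alternatives called it. JARID2 was higher in the libraries labelled shCDK12_OHT than in shNT_OHT (log2 fold change 0.94, SE 0.17, adjusted p = 0.00127). The JARID2 interaction (0.65 on the log2 scale, SE 0.20, adjusted p = 0.0137) was lost without shNT_OHT replicate 3, after thinning and with gene length trends removed (adjusted p 0.054 to 0.751). SUZ12, the subunit PRC2 is built around, had no call, although 6 of 14 alternatives, upper-quartile normalization among them, called it with OHT under the shCDK12 label (log2 fold change -0.35, SE 0.16, adjusted p = 0.0771 as reported). Replicate 2 of the libraries labelled shCDK12 (99.4 CPM) stood well above replicates 1 and 3 (57.7 and 56.4). Of PRC1, RNF2, the main H2A ubiquitin ligase, was 45.1 to 50.1 CPM in shNT, 26.6 to 42.0 in shNT_OHT, 56.3 to 68.6 in the libraries labelled shCDK12 and 49.7 to 60.3 in those labelled shCDK12_OHT. RNF2 was higher between the shRNA labels without OHT (log2 fold change 0.35, adjusted p = 0.028). For RNF2 the call without OHT was lost without shNT replicate 1 or 2 or shCDK12 replicate 2, in the fit of all 12 libraries and after thinning (adjusted p 0.0568 to 0.143). RNF2 was also higher with OHT (log2 fold change 0.63, adjusted p = 0.0176). For RNF2 the call between shRNA labels under OHT was lost without shCDK12_OHT replicate 1 or 2 (adjusted p 0.0697 to 0.0915).

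Of the 13 lysine demethylases, KDM2B rose and KDM5B fell with OHT in shNT. KDM2B, which brings a PRC1 variant to CpG islands, measured 37.0, 50.9 and 37.6 CPM in shNT and 73.9, 83.3 and 69.9 in shNT_OHT. KDM2B was at 63.0, 66.6 and 81.4 CPM in the libraries labelled shCDK12 and 57.2, 57.9 and 69.8 in those labelled shCDK12_OHT. Its shNT libraries were the lowest of all. It was 1.78 times as high with OHT in shNT (log2 fold change 0.83, SE 0.18, adjusted p = 0.00663). For KDM2B the call with OHT in shNT was lost without shNT replicate 1 (adjusted p = 0.0523). It was higher in the libraries labelled shCDK12 than in shNT (log2 fold change 0.73, SE 0.15, adjusted p = 0.000121). Its interaction was downward (interaction -1.02 on the log2 scale, SE 0.21, adjusted p = 0.000704). KDM2B has 3.22% of its exon bases opposite RNF34. Its paralog KDM2A, an H3K36 demethylase, was instead lower in the libraries labelled shCDK12 (315 to 353 CPM) than in shNT (407 to 464 CPM; log2 fold change -0.35, SE 0.084, adjusted p = 0.000789) and with OHT (log2 fold change -0.39, SE 0.12, adjusted p = 0.022). For KDM2A the call between shRNA labels under OHT was lost without shCDK12_OHT replicate 1, 2 or 3 (adjusted p 0.0588 to 0.088). KDM5B, an H3K4 demethylase, measured 125, 159 and 165 CPM in shNT and 115, 87.4 and 115 in shNT_OHT. KDM5B was at 178, 179 and 180.1 CPM in the libraries labelled shCDK12 and 201, 197 and 200.1 in those labelled shCDK12_OHT. Its shNT_OHT libraries were the lowest and those labelled shCDK12_OHT the highest, with no overlap. KDM5B fell with OHT in shNT (log2 fold change -0.49, SE 0.16, adjusted p = 0.0454). For KDM5B the call with OHT in shNT was lost without shNT replicate 1, 2 or 3 or shNT_OHT replicate 2 or 3, with upper-quartile normalization, after thinning and with gene length trends removed (adjusted p 0.0505 to 0.218). It was higher in the libraries labelled shCDK12_OHT than in shNT_OHT (log2 fold change 0.92, SE 0.13, adjusted p = 0.000256), its difference without OHT (log2 fold change 0.26, SE 0.10, adjusted p = 0.0282) was lost without shNT replicate 1 or shCDK12 replicate 3 and in the fit of all 12 libraries (adjusted p 0.0601 to 0.265), and its interaction (0.63 on the log2 scale, SE 0.17, adjusted p = 0.00425) was lost with gene length trends removed (adjusted p = 0.0865). KDM5A, its close relative, measured 132, 119.8 and 107 CPM in shNT and 85.5, 111 and 110.5 in shNT_OHT. KDM5A was at 143, 121 and 130.1 CPM in the libraries labelled shCDK12 and 166, 167 and 176 in those labelled shCDK12_OHT. It was likewise highest in the libraries labelled shCDK12_OHT. KDM5A rose there with OHT (log2 fold change 0.38, SE 0.085, adjusted p = 0.0013) and stood above shNT_OHT (log2 fold change 0.76, SE 0.13, adjusted p = 0.001), and its interaction (0.62 on the log2 scale, SE 0.17, adjusted p = 0.00581) was lost with gene length trends removed (adjusted p = 0.108).

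The KDM4 enzymes remove methyl groups from H3K9 and H3K36, and they did not move as one. KDM4A measured 182, 146 and 188 CPM in shNT and 171, 129.5 and 119 in shNT_OHT. KDM4A was at 123, 96.0 and 101 CPM in the libraries labelled shCDK12 and 156, 156 and 162 in those labelled shCDK12_OHT. The libraries labelled shCDK12 were below shNT and those labelled shCDK12_OHT, with no overlap. It was lower than in shNT (log2 fold change -0.69, SE 0.12, adjusted p = 1.26e-05) and rose with OHT (log2 fold change 0.58, SE 0.094, adjusted p = 6.97e-05), with an upward interaction (0.86 on the log2 scale, SE 0.19, adjusted p = 0.00129). The antisense gene KDM4A-AS1 covers 9.12% of its exon bases. KDM4B measured 25.1, 27.9 and 25.6 CPM in shNT and 25.1, 16.5 and 11.6 in shNT_OHT. KDM4B was at 19.0, 15.4 and 23.5 CPM in the libraries labelled shCDK12 and 30.6, 30.1 and 25.9 in those labelled shCDK12_OHT. It rose with OHT in the libraries labelled shCDK12 (log2 fold change 0.61, SE 0.16, adjusted p = 0.00395), and its interaction (1.16 on the log2 scale, SE 0.33, adjusted p = 0.007) was lost with gene length trends removed (adjusted p = 0.0669). KDM4B's lower level without OHT (log2 fold change -0.46, SE 0.19, adjusted p = 0.0413) was lost without shNT replicate 1, 2 or 3 or shCDK12 replicate 1 or 2, with DESeq2, with upper-quartile normalization, with no filter on low counts, in the fit of all 12 libraries and with gene length trends removed (adjusted p 0.0501 to 0.217), and its higher level with OHT (log2 fold change 0.72, SE 0.26, adjusted p = 0.0436) was lost without shNT_OHT replicate 2 or 3 or shCDK12_OHT replicate 1, 2 or 3, with DESeq2, with upper-quartile normalization and with gene length trends removed (adjusted p 0.0634 to 0.242). KDM4C measured 19.4, 20.5 and 13 CPM in shNT and 19.7, 25.6 and 24.4 in shNT_OHT. KDM4C was at 38.4, 37.3 and 36.5 CPM in the libraries labelled shCDK12 and 37.5, 37.2 and 36.6 in those labelled shCDK12_OHT, and every library with an shCDK12 label was above every shNT library. The difference held without OHT (log2 fold change 1.03, SE 0.18, adjusted p = 1.68e-05), and with OHT (log2 fold change 0.71, SE 0.18, adjusted p = 0.00703) it was lost with gene length trends removed (adjusted p = 0.119).

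The H3K27 demethylases differed as well. KDM6B, known as JMJD3, measured 183, 152 and 154 CPM in shNT and 189, 139 and 157 in shNT_OHT. KDM6B was at 109, 93.9 and 103 CPM in the libraries labelled shCDK12 and 126, 114 and 106 in those labelled shCDK12_OHT. It was lower in the libraries labelled shCDK12 than in shNT (log2 fold change -0.69, SE 0.10, adjusted p = 2.76e-06). With OHT the direction was the same (log2 fold change -0.48, SE 0.14, adjusted p = 0.0164). For KDM6B the call between shRNA labels under OHT was lost without shCDK12_OHT replicate 2 or 3 (adjusted p 0.0702 to 0.0843). KDM6A, the X-linked UTX, measured 41.9, 39.6 and 39.6 CPM in shNT and 25.7, 42.9 and 31.9 in shNT_OHT. KDM6A was at 36.4, 46.1 and 43.5 CPM in the libraries labelled shCDK12 and 56.1, 52.4 and 44.3 in those labelled shCDK12_OHT. It was higher in the libraries labelled shCDK12_OHT than in shNT_OHT (log2 fold change 0.68, SE 0.19, adjusted p = 0.015). For KDM6A the call between shRNA labels under OHT was lost without shCDK12_OHT replicate 1 or 2, after thinning and with gene length trends removed (adjusted p 0.066 to 0.226). The KDM6A interaction (0.61 on the log2 scale, SE 0.24, adjusted p = 0.0424) was lost without shNT replicate 1, 2 or 3, shCDK12 replicate 1 or 3, shNT_OHT replicate 1 or 3 or shCDK12_OHT replicate 1 or 2, with DESeq2, with upper-quartile normalization, with no filter on low counts, after thinning and with gene length trends removed (adjusted p 0.0542 to 0.556). KDM1A, the LSD1 enzyme that removes H3K4 methylation with the CoREST complex, ran from 58.1 to 82.4 CPM and was called in no comparison. Its relative KDM1B measured 12.6, 11.5 and 22.6 CPM in shNT and 10.0, 3.30 and 0.870 in shNT_OHT. KDM1B was at 19.0, 20.1 and 17.4 CPM in the libraries labelled shCDK12 and 16.3, 15.9 and 19.4 in those labelled shCDK12_OHT. The shNT_OHT libraries spread from 0.870 to 10.0 CPM, all below every other library, yet the change with OHT in shNT was not called (log2 fold change -1.61, SE 0.56, adjusted p = 0.061). It was called by 4 of 14 alternatives, among them no filter on low counts, the fit of all 12 libraries and the fit without shNT_OHT replicate 1. The shNT_OHT values rest on 32, 4 and 3 counts. KDM1B was higher in the libraries labelled shCDK12_OHT than in shNT_OHT (log2 fold change 1.81, SE 0.51, adjusted p = 0.0137). The log2 fold change was 3.47 without shNT_OHT replicate 1 and 1.09 without shNT_OHT replicate 3. For KDM1B the call between shRNA labels under OHT was lost without shCDK12_OHT replicate 3 (adjusted p = 0.0578). Its interaction (1.43 on the log2 scale, SE 0.56, adjusted p = 0.0429) was 3.08 and 0.75 without these libraries, and was lost without shNT replicate 1 or 3, shCDK12 replicate 1, 2 or 3, shNT_OHT replicate 2 or 3 or shCDK12_OHT replicate 1, 2 or 3, with DESeq2, with upper-quartile normalization and with gene length trends removed (adjusted p 0.0509 to 0.174). PHF8, which removes H3K9 and H4K20 methylation, was 48.1 to 71.4 CPM in shNT and 75.9 to 98.0 in the libraries labelled shCDK12 (log2 fold change 0.45, SE 0.13, adjusted p = 0.00526). For PHF8 the call without OHT was lost after thinning (adjusted p = 0.0742). KDM7A had no call, although 5 of 14 alternatives, no filter on low counts among them, called it with OHT under the shCDK12 label (log2 fold change 0.33, SE 0.13, adjusted p = 0.0514 as reported).

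Set side by side, the OHT responses in the shRNA backgrounds, which share no library, mostly had opposite signs. Of the 46 members tested in both, 32 (69.6%) had log2 fold changes of opposite sign, against 71.1% of 10212 genes over the whole table. Across members Pearson's r was -0.32 and Spearman's rho -0.41 (46 genes, which share libraries and are not independent), and across all genes r was -0.62. Called in both backgrounds were KMT2A, KMT2E, MEN1 and SUV39H1, all 4 with opposite signs, and over all genes 1361 of the 1392 called in both (97.8%) had opposite signs. An exchange of the labels shCDK12 and shCDK12_OHT would reverse every sign of the second response. It was not tested and cannot be told apart here from a response that differs between backgrounds.

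**Figure D3:**
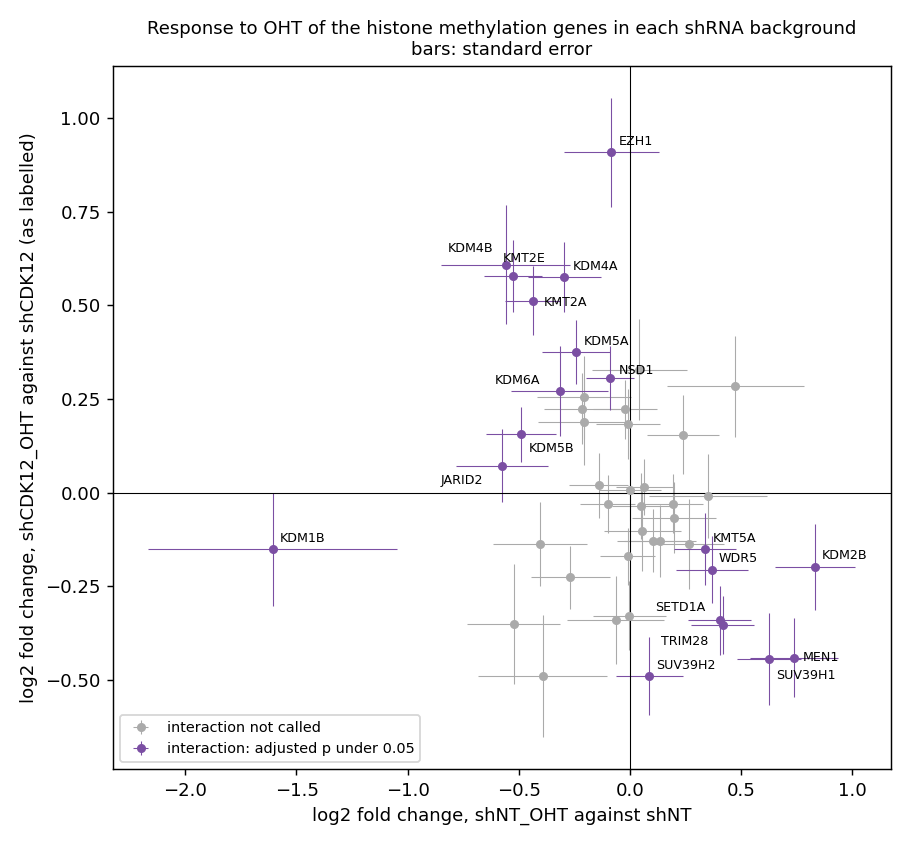
Log2 fold change with OHT in shNT (horizontal) against that in the libraries labelled shCDK12 (vertical) for the 46 members tested in both, with bars for the standard error and purple for an interaction with an adjusted p under 0.05. MEN1 and SUV39H1 lie at the lower right, and KMT2A and KMT2E at the upper left.

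Responses were also related to gene span, the distance from the start to the end of the gene in RefSeq. With OHT in shNT, log2 fold change against log span had Pearson's r of -0.40 over 46 members and -0.29 over 10251 genes. For OHT in the libraries labelled shCDK12 the members' r was 0.24 (all genes 0.12), for the shRNA labels without OHT -0.067 (-0.053), for the shRNA labels with OHT 0.32 (0.21), and for the interaction 0.37 (0.21). MEN1 spans 7.78 kb and SUV39H1 13.5 kb, while KDM5B spans 83.9, KMT2A 90.3 and KMT2E 101 kb. KDM2B, at 174 kb, rose. With each library's trend in gene length removed, KDM2B and SUV39H1 kept their calls in shNT and the other 4 did not, while the direction of all 6 held. Their log2 fold changes were then 0.61 for MEN1 (adjusted p = 0.0511; 0.74 before), -0.26 for KMT2A (0.18; -0.44 before), -0.34 for KMT2E (0.095; -0.52 before) and -0.31 for KDM5B (0.218; -0.49 before).

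**Figure D4:**
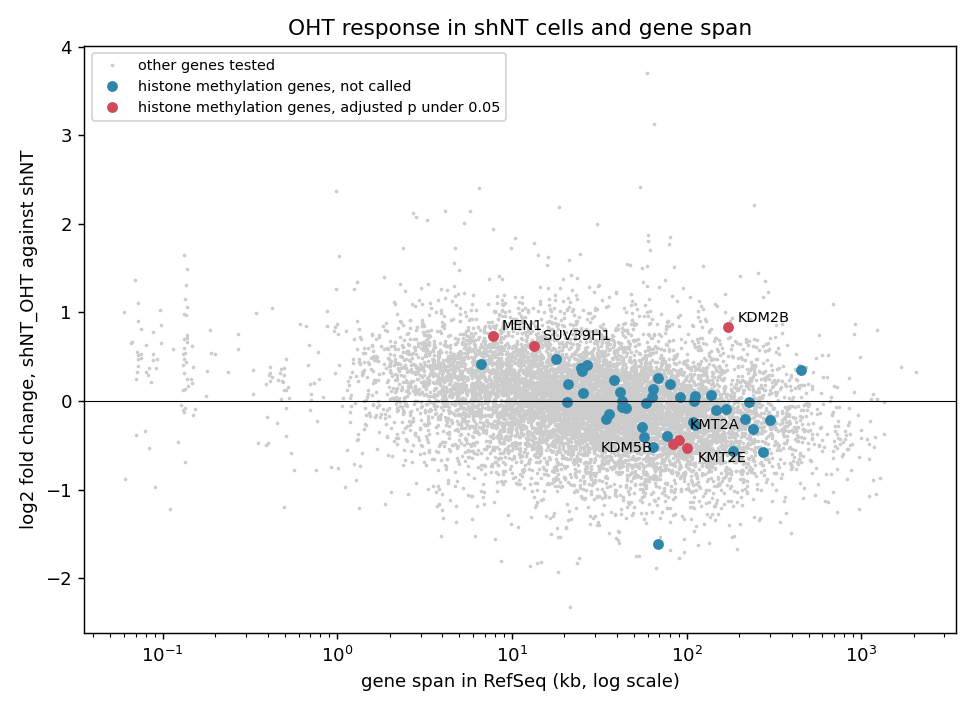
Log2 fold change with OHT in shNT against gene span in kb (log axis), with grey for all other genes tested, blue for members not called and red for the 6 called. KDM5B, KMT2A and KMT2E, which fell, span 83.9, 90.3 and 101 kb, and MEN1 and SUV39H1, which rose, span 7.78 and 13.5 kb.

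MYC binds the E-box CACGTG with its partner MAX, so the members' promoters were searched for it. RefSeq promoter windows (250 bases before to 50 after a start, GRCh38.p14) were held for 44 of the 49 members, as 67 windows, and none for TRIM28, ASH2L, SETD1B, DOT1L or NSD3. CACGTG, which reads the same on both strands, was in 10 of the 67 (14.9%), in BMI1, EHMT2, KDM4B, KDM4C, KDM6A, KMT2D, NSD1, SETDB1 and WDR5, against 7.26% of 35116 windows over all genes and 8.34% of 22199 windows of coding genes. The SETDB1 windows overlap and hold the same site, which is counted in both, so windows are not independent. The E2F core TTGGCG or TTCGCG, searched on both strands, was in 20.9% of member windows, 14.1% of all and 17.3% of those of coding genes. The ETS core CCGGAA, on both strands, was in 16.4%, 17.2% and 21.2%. None of the 6 members called with OHT in shNT had CACGTG in its windows. The 8 tested members that had it held 0 calls there by edgeR and 0 by DESeq2, with 1 unadjusted edgeR p under 0.05 (median log2 fold change 0.17). The 33 without it held 3 higher and 3 lower by edgeR and 7 calls by DESeq2, with 11 unadjusted edgeR p under 0.05 (median -0.023). Of all genes 17.3% were called there, and no test was made between these sets. A letter match is a description and not a binding site. Upstream stretches of 60 bases with CACGTG in capitals are shown for 5 of these genes, picked after the values were seen, 1 H3K4 enzyme, 1 H3K36 enzyme, 2 H3K9 enzymes and the COMPASS scaffold, so that the motif can be seen in place beside genes that did not pass the test with OHT in shNT. They lie at chr9:134136258-134136317 (plus strand), chr5:177131738-177131797 (plus), chr1:150926188-150926247 (plus), chr6:31897699-31897758 (minus) and chr12:49060883-49060942 (minus), each read 5′ to 3′ on the gene's strand.
WDR5: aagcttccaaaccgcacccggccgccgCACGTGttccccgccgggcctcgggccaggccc
NSD1: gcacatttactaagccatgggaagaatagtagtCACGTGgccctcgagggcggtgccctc
SETDB1: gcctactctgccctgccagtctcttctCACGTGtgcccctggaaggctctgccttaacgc
EHMT2: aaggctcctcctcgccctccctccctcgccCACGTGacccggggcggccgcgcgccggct
KMT2D: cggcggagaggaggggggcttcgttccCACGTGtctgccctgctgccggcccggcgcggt

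A wider list of 61 related genes, further subunits and enzymes of the same pathways that are not among the 49, gave 3 higher and 2 lower of 57 tested with OHT in shNT, where 17.3% of all genes were called. The rises included RIOX2, a demethylase of the JmjC family (log2 fold change 0.80, SE 0.16, adjusted p = 0.00472), and the falls RCOR1, the CoREST scaffold of KDM1A (log2 fold change -0.63, SE 0.14, adjusted p = 0.00648). The RCOR1 call was lost without shNT replicate 2 (adjusted p = 0.0567). The other fall was HCFC2, listed with COMPASS (log2 fold change -1.27, SE 0.37, adjusted p = 0.0275), and its call was lost in 4 of 12 alternatives. Between the shRNA labels without OHT, where 62.0% of all genes were called, 17 were higher and 21 lower of 59, among them the PRC1 subunits PCGF6 (log2 fold change 1.35, SE 0.18, adjusted p = 4.67e-07) upward and RING1 (log2 fold change -1.30, SE 0.13, adjusted p = 4.86e-09) and PHC2 (log2 fold change -1.59, SE 0.10, adjusted p = 6.9e-13) downward. OHT in the libraries labelled shCDK12 gave 15 higher and 16 lower of 59, with 48.9% of all genes called, including ATF7IP, the partner of SETDB1 (log2 fold change 0.68, SE 0.089, adjusted p = 6.52e-06), and PCGF6 in the other direction (log2 fold change -1.07, SE 0.14, adjusted p = 8.45e-06). Between the shRNA labels with OHT, 15 were higher and 15 lower of 58, with 45.4% of all genes called. Among them were ATF7IP upward (log2 fold change 1.89, SE 0.14, adjusted p = 6.27e-06) and SETD4 downward (log2 fold change -1.12, SE 0.21, adjusted p = 0.00134). The interaction called 9 upward and 10 downward of 59, with 45.2% of all genes called.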

How the data were processed

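EU-seq of 12 libraries, 3 in each of 4 groups, was analysed from 1 table of read counts for 23434 human genes, which the authors deposited as raw counts per Entrez gene identifier without normalization. The submitters' processing notes name hg19, STAR 2.7.5c and featureCounts 1.4.5-p1; the strand setting is not given in the sources used here. Per the labels, 40 µg of human RNA was mixed with 10 µg of mouse RNA before pull-down, but the table has no mouse rows and no spike-in scaling was made. Symbols came from RefSeq (GRCh38.p14), exon lengths and overlaps from GENCODE.

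Counts were fitted with edgeR 4.0.16 in R 4.3.3 (TMM, quasi-likelihood test, Benjamini-Hochberg adjustment over all genes tested, adjusted p under 0.05, mean normalized count above 32). Each comparison used the 6 libraries of its groups, and the interaction all 12. Errors rest on the spread between 3 libraries a group, and totals of 1251695 to 10447836 counts limit the genes with few counts.

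The 49 genes, the list of 61 related genes and the comparisons were chosen with earlier results of these data known. The genes described with values were the 3 largest rises and falls among called members whose groups did not overlap, 13 well-known members, CDK12 and MYC, and their paralogs; other called members were added by name. The result of a further related gene, which the counts of its list include, is not reported here.

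The numbers of the replicates were checked for pairing. Deviations of same-numbered libraries from their group means correlated at -0.047 to 0.18 (median 0.020), with 2 of 18 pairs over 0.1. Those of different-numbered libraries correlated at -0.22 to 0.061 (median -0.0082), with 0 of 36 pairs over 0.1. Whether the numbers mark pairs was not settled, and they were not used as a block in the main fits. Alternatives were DESeq2 1.42.0, upper-quartile normalization, no filter and a filter of 100, the replicate block, 1 fit of all 12 libraries, thinning to 1251695 counts per library, removal of gene length trends, and leaving out each library.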

Additional observations from a re-analysis of the deposited data

Results flagged for a closer look

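An interaction term in edgeR asked whether OHT acted unequally in the shNT cells and in the libraries labelled shCDK12, and it called 19 members besides CDK12 and MYC. Over all genes tested, 45.2% had a called interaction. The OHT response was more positive in the libraries labelled shCDK12 for KMT2A (interaction 0.94 on the log2 scale), KMT2E (1.10), NSD1 (0.39), EZH1 (0.98), JARID2 (0.65), KDM1B (1.43), KDM4A (0.86), KDM4B (1.16), KDM5A (0.62), KDM5B (0.63) and KDM6A (0.61). It was more negative there for KMT5A (-0.50), SETD1A (-0.75), SUV39H1 (-1.08), SUV39H2 (-0.57), TRIM28 (-0.77), KDM2B (-1.02), MEN1 (-1.18) and WDR5 (-0.57). CDK12, the gene named by the shRNA label, had an interaction of -0.83, and MYC had one of 0.96. Of the 19 member calls, 14 held with any 1 library left out and 11 under every alternative in which the gene was tested. The KDM6A call was lost in 14 of 19 alternatives, that of KDM1B in 13 of 17 and that of NSD1 in 9 of 19. With gene length trends removed, 5 members were called upward and 14 downward. These directions rest on the labels as given.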

How the results depend on the processing

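Of the alternative values of the members and related genes followed, 2019 kept their direction and side of the threshold, 193 kept their direction and fell short of it, 23 passed it and 25 changed sign. None of the sign changes was of a called difference. OHT in shNT was the comparison that depended most on the processing: 12 members and 3256 genes were called in 1 fit of all 12 libraries, and 2 members with gene length trends removed. Thinning to the smallest library total called 4474 genes between the shRNA labels without OHT, 11 members and 3164 genes with OHT in the libraries labelled shCDK12, 3091 genes between the shRNA labels with OHT, and 3187 in the interaction. Thinning leaves fewer genes to test. Leaving out 1 library gave 1 to 11 members and 670 to 2523 genes for OHT in shNT, and 12 to 29 members and 3520 to 6238 genes between the shRNA labels with OHT. For OHT in shNT the lowest member counts came without shNT replicate 1, 2 or 3 (1, 2 and 3) and the highest without shNT_OHT replicate 1 (11). Between the shRNA labels with OHT, 14, 12 and 15 members were called without shCDK12_OHT replicate 1, 2 or 3.

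Signs changed for values near 0, and the cause was not tested. With OHT in shNT, KDM6B was 0.023 with DESeq2, 0.034 with upper-quartile normalization and 0.073 after thinning. SETD2 was 0.0091 after thinning and 0.11 with gene length trends removed, and EZH1 was 0.015 with the latter. CDK12 without OHT was 0.015 with upper-quartile normalization and 0.014 with gene length trends removed, and EZH1 between the shRNA labels with OHT was -0.012 with the latter. The SETD2 interaction was -0.051 with upper-quartile normalization, -0.13 after thinning and -0.26 with gene length trends removed. With 1 library left out, OHT in shNT gave -0.15 to 0.0098 for SETD2, -0.27 to 0.047 for EZH1, -0.12 to 0.11 for KDM6B and -0.17 to 0.035 for MYC. SETD2 with OHT in the libraries labelled shCDK12 ran from -0.084 to 0.023, and between the shRNA labels with OHT EZH1 ran from -0.030 to 0.28 and MYC from -0.043 to 0.16. The interaction ran from -0.030 to 0.15 for SETD2 and from -0.21 to 0.056 for EZH2.

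Whether the replicate numbers mark pairs was not settled by the data, and 7 of 12 libraries correlated best with another of their own number. Same-numbered pairs had a median correlation of 0.020 (highest 0.18) and different-numbered pairs one of -0.0082 (highest 0.061). With the replicate block, 7, 29, 21, 20 and 19 members were called in the 5 comparisons, where the fits without the block called 6, 28, 19, 23 and 19. The block added KDM1B for OHT in shNT, EHMT2 between the shRNA labels without OHT, and SUZ12 and KDM7A for OHT in the libraries labelled shCDK12, and dropped KMT5C, SETDB1 and SUV39H2 between the labels with OHT.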
